A study of Cricetulus griseus with 8 samples.

Results

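The 10 genes described here were grouped under the Hippo pathway and its effectors YAP and TAZ: Yap1, Wwtr1, Tead1, Tead3, Lats1, Lats2, Amotl2, Ajuba, Nuak2 and Fstl1. All but Fstl1 are also in the Hippo lists described further below. They were chosen by name, with earlier results of these data known, out of 26776 named genes in the deposited table. Every one was found there. RNA was sequenced from LR73 cells, an adherent Chinese hamster line derived from ovary cells, which the labels call a fibroblast and which engulfs dying cells. Both groups grew in the same serum-containing medium. Of the libraries, 4 came from LR73 cells alone and 4 from LR73 cells co-cultured with apoptotic Jurkat cells, a human T cell line. The Jurkat cells had been given 1500 mJ of UV-C light and kept in culture for 4 h before being added. The names of the data columns of both groups carry the prefix GFP, which the labels do not explain, and the length of the co-culture is not given in the sources used here. Per the series design text each group has 4 biological replicates, without a statement of how the cultures were kept separate, so the p-values measure the spread between these libraries.

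In the Hippo pathway the kinases MST1 and MST2 (genes Stk4 and Stk3), with the scaffold SAV1, activate the kinases LATS1 and LATS2, which act with MOB1. LATS kinases phosphorylate the co-activators YAP (Yap1) and TAZ (Wwtr1), which are then held in the cytoplasm or degraded. Unphosphorylated YAP and TAZ enter the nucleus, bind TEAD factors and switch on genes for growth, adhesion and cytoskeletal organization, among them inhibitors of YAP and TAZ themselves such as Lats2 and Amotl2. In adherent fibroblast-like cells the pathway is known to respond to cell density, cell shape, actin tension and serum lipids. Much of this control acts on proteins, by phosphorylation and location, which RNA levels do not show.

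Each library had between 22.7 and 29.7 M (mega) reads in genes with a name, and a gene was tested where its mean over the libraries was at least 10 normalized counts, meaning read counts divided by the authors' size factor for the library. All 10 genes passed this filter, with between 75 reads (Nuak2) and 15445 reads (Fstl1) in a single library. Alone library 1 stood apart: its genes deviated from the rest of its group by a median of 0.168 on the log2 scale, against 0.0466 to 0.100 for the other 7 libraries, and it held the lowest value of all 8 libraries in 5 of the 10 genes and the highest in 2. Over all tested genes that library held the lowest value in 30.3% and the highest in 29.2%. Results below are therefore given with and without it where that matters. Vim and Fn1, mesenchymal markers, were abundant. Vim had 107843 to 118646 normalized counts alone and 129283 to 132473 with apoptotic cells. Fn1 had 23091 to 37276 over all libraries. The fibroblast marker Thy1 had no reads in any library, which allows up to 3 reads per library, and Col1a1 did not exceed 1.90 normalized counts. Vim held most of the summed level of the 13 fibroblast markers, 153366 to 156796 alone and 174512 to 176698 with apoptotic cells. Of the 9 such markers tested, Vim was called higher (adjusted p = 0.00281 by limma) and 1 lower, where 11.7% of all tested genes were called. Of 20 T cell markers, 16 stood below 10 normalized counts in every library of cells alone. Their summed level was 3.80 to 10.1 in the cells alone and 13.2 to 19.8 in the co-cultures, and Cd3d, Cd3g, Cd2 and Txk were at 0 throughout. These 16 were picked for low values in the cells alone, so the choice itself favours a higher sum in the co-cultures. The sum over all 20 markers, held mostly by Tcf7, Themis and Lat, which these hamster cells express alone as well, was 1488 to 1587 in the cells alone and 1344 to 1406 in the co-cultures. What part reads from human RNA have in the values below was not tested.

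With apoptotic cells, 1 of the 10 genes rose and 2 fell, by limma, a linear model fitted over all tested genes, at a Benjamini-Hochberg adjusted p under 0.05. Fstl1 rose by 18.7%, Lats2 fell by 14.4% and Nuak2 fell by 30.3%. Over all 13494 tested genes 11.7% were called (6.36% higher and 5.31% lower), and 3 of 10 read against that share rests on very few genes. The 10 genes, and the lists further below, were also chosen with earlier results of these data known. Shares of all tested genes set beside their counts therefore cannot show whether they differ from the rest. The same 3 genes were called under TMM scaling, where 796 of all tested genes were higher and 753 lower. Fstl1 and Nuak2 were called with the replicate number as a block, where 6.65% of all tested genes were called (3.69% higher and 2.96% lower). Without alone library 1 the called genes were Lats1 and Fstl1, higher, and Lats2 and Nuak2, lower, where 26.0% of all tested genes were called (13.4% higher and 12.5% lower). The groups did not overlap in 5 of the 10 genes (Lats1 and Fstl1 higher, Lats2, Amotl2 and Nuak2 lower), where 21.2% of all tested genes had groups that did not overlap (11.4% higher and 9.72% lower). The median log2 fold change of the 10 genes was 0.01, or -0.06 without alone library 1, beside 0.001 over all tested genes. The authors' deposited table, whose fold changes are drawn towards 0, gave adjusted p-values of 0.00244 for Fstl1, 0.0133 for Lats2 and 0.00307 for Nuak2, and 0.145 or more for the other 7 genes, with 12.2% of its genes under the same threshold.

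**Figure D1:**
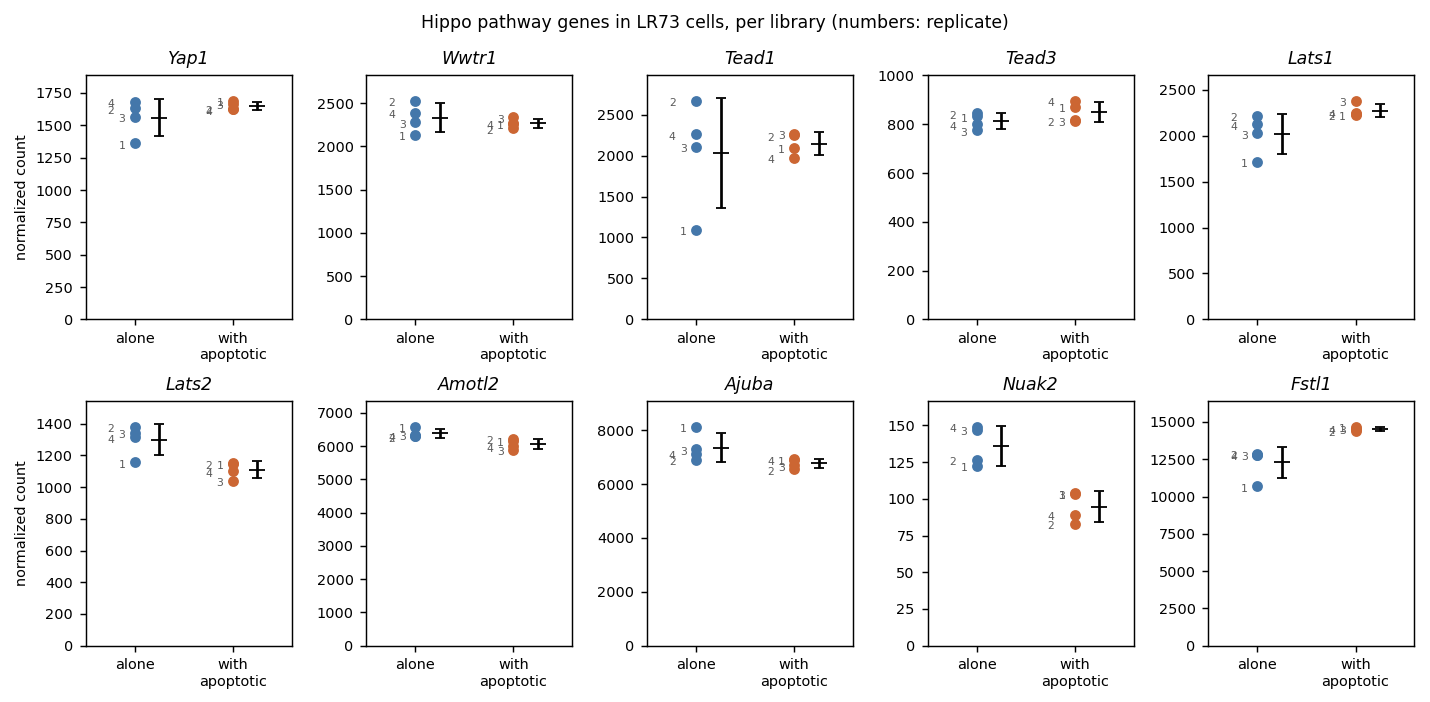
Normalized counts of the 10 genes in each library (points, numbered by replicate) for LR73 cells alone and with apoptotic cells, with the mean and SD of 4 libraries beside each group; every axis starts at 0. Fstl1 is higher and Nuak2 lower in every co-culture library, and alone library 1 sits far below the others for Tead1, at 1096 normalized counts.

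Neither co-activator gene was called. Yap1, which encodes YAP, had 1362, 1633, 1564 and 1681 normalized counts in alone libraries 1 to 4 and 1690, 1627, 1665 and 1624 in co-culture libraries 1 to 4. The groups overlapped, with alone library 1 the lowest of all and the co-cultures within a narrow band. Its log2 fold change was 0.09 (standard error 0.06, 95% interval -0.05 to 0.22, adjusted p = 0.390 by limma), and 0.02 without alone library 1 (95% interval -0.05 to 0.09). Wwtr1, which encodes TAZ, had 2134, 2527, 2280 and 2386 normalized counts alone and 2265, 2210, 2334 and 2262 with apoptotic cells. These groups overlapped as well, and alone libraries 2 and 4 were above every co-culture library. Its log2 fold change was -0.04 (standard error 0.05, 95% interval -0.15 to 0.07, adjusted p = 0.667 by limma), -0.08 without alone library 1 (adjusted p = 0.0895 by limma) and 0.002 without alone library 2. For neither gene does a missed threshold show that the level was the same in both groups.

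TEAD factors are the DNA-binding partners through which YAP and TAZ reach their targets. Tead1 had 1096, 2669, 2106 and 2259 normalized counts alone and 2094, 2248, 2263 and 1972 with apoptotic cells. Alone library 1 was at 46.7% of the mean of the other alone libraries, the lowest share among the 10 genes, while the co-cultures lay within the range of the cells alone. The direction of the Tead1 fold change turned with that library, from 0.15 (standard error 0.22, 95% interval -0.33 to 0.63, adjusted p = 0.698 by limma) to -0.12 without it (standard error 0.05, adjusted p = 0.100 by limma). Tead3 had 832, 845, 775 and 800 normalized counts alone and 871, 814, 816 and 896 with apoptotic cells, with overlapping groups and no library far from the rest. For Tead3 the log2 fold change was 0.06 (standard error 0.05, 95% interval -0.05 to 0.17, adjusted p = 0.453 by limma). Of the remaining family members, Tead4 had a mean of 418 ± 35.8 normalized counts alone and 380 ± 18.0 with apoptotic cells (± SD, n = 4 each), a log2 fold change of -0.14 that missed the limma threshold (adjusted p = 0.245) and passed it without alone library 1 (-0.19, adjusted p = 0.0275). Tead2 had no reads in any of the 8 libraries, which allows up to 3 reads per library.

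Of the 2 genes for LATS kinases, which phosphorylate YAP and TAZ, Lats2 fell, while Lats1 was above its level in cells alone without passing the test. Lats2, both a kinase of the pathway and a known YAP/TAZ target gene, had 1156, 1378, 1344 and 1314 normalized counts alone and 1148, 1150, 1039 and 1100 with apoptotic cells. Every co-culture library was below every library of cells alone, although alone library 1 was only just above the highest co-culture library. Lats2 fell by 0.22 on the log2 scale (standard error 0.06, 95% interval -0.36 to -0.09, adjusted p = 0.0357 by limma), and by 0.28 without alone library 1 (adjusted p = 1.12e-05 by limma). The call was lost when any of the other 7 libraries was left out (adjusted p = 0.0667 to 0.110 by limma). Lats1 had 1719, 2219, 2026 and 2127 normalized counts alone and 2236, 2231, 2382 and 2251 with apoptotic cells. Here every co-culture library was above every library of cells alone, by a narrow margin over alone library 2. The log2 fold change of Lats1 was 0.18 (standard error 0.07, 95% interval 0.02 to 0.33) and missed the limma threshold (adjusted p = 0.138), but passed it without alone library 1 (0.10, adjusted p = 0.0346).

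Ratios of paralogues within a library do not depend on the library's scaling, and show unequal change of a pair without saying which member moved. The pairs were chosen after their values were seen and were not tested. There were 1.49, 1.61, 1.51 and 1.62 normalized counts of Lats1 per count of Lats2 in alone libraries 1 to 4, and 1.95, 1.94, 2.29 and 2.05 in co-culture libraries 1 to 4. The 2 groups were well apart and alone library 1 was near the others of its group, with a mean log2 difference of 0.40, or 0.38 without that library. For TAZ against YAP, Wwtr1 per Yap1 was 1.57, 1.55, 1.46 and 1.42 alone and 1.34, 1.36, 1.40 and 1.39 with apoptotic cells. These groups were apart by a small margin, with a mean log2 difference of -0.12. Mob1a per Mob1b, the paralogous genes of the LATS co-factor MOB1, was 36.0 to 46.4 alone and 31.2 to 33.8 with apoptotic cells. MOB1 paralogues are close copies, which makes the assignment of reads to either gene, and so their values, uncertain. Tead1 per Tead3 (1.32 to 3.16 alone, 2.20 to 2.77 with apoptotic cells), Tead4 per Tead3 (0.452 to 0.548 and 0.400 to 0.485), Stk4 per Stk3 (1.67 to 2.00 and 1.72 to 1.80) and Amotl1 per Amotl2 (1.14 to 1.52 and 1.44 to 1.58) had overlapping groups. For Tead4 per Tead3 the overlap came from alone library 1 (0.452), as the other libraries of cells alone, at 0.548, 0.547 and 0.513, lay above all co-cultures. The mean log2 difference of Tead1 per Tead3 was 0.09, or -0.20 without alone library 1. Transcript lengths were not used, so these ratios are of reads and not of molecules.

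**Figure D2:**
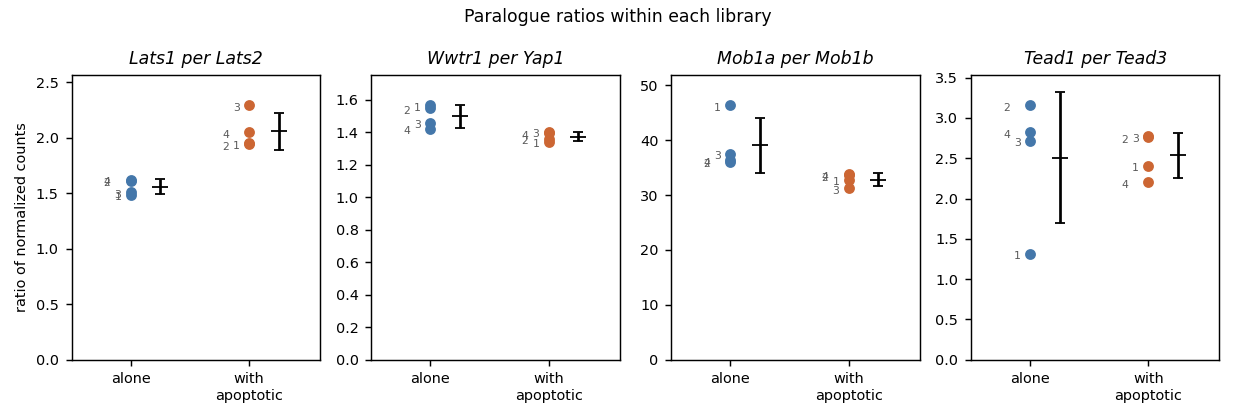
Ratio of the normalized counts of 2 paralogues in each library (points, numbered by replicate), with each group's mean and SD over its 4 libraries; axes start at 0. Lats1 per Lats2 is 1.49 to 1.62 in cells alone and 1.94 to 2.29 with apoptotic cells, and Tead1 per Tead3 overlaps between the groups, with alone library 1 at 1.32.

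Amotl2 and Ajuba encode proteins at cell junctions and on actin that bind pathway components. Angiomotin-like 2 holds YAP outside the nucleus and is a known YAP/TAZ target, and the LIM-domain protein AJUBA binds and restrains LATS kinases. Amotl2 had 6571, 6295, 6343 and 6308 normalized counts alone and 6164, 6210, 5890 and 5994 with apoptotic cells. All 4 co-cultures were below all libraries of cells alone, but by little, with a log2 fold change of -0.07 (standard error 0.03, 95% interval -0.14 to -0.004) that missed the limma threshold (adjusted p = 0.166). Ajuba had 8116, 6900, 7290 and 7119 normalized counts alone and 6896, 6546, 6692 and 6925 with apoptotic cells. The groups overlapped in 1 library each, alone library 2 lying just below co-culture library 4, and alone library 1 was the highest of all. The Ajuba log2 fold change was -0.12 (standard error 0.05, 95% interval -0.23 to -0.01, adjusted p = 0.148 by limma), and -0.07 without alone library 1.

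Nuak2, a kinase of the AMPK-related family and a known YAP/TAZ target gene, showed the largest difference among the 10 genes. It had 122, 127, 147 and 149 normalized counts in alone libraries 1 to 4 and 104, 82.9, 103 and 89.0 in co-culture libraries 1 to 4. The groups were clearly apart at this low level, with 75 to 152 reads per library. Nuak2 fell from 136 ± 13.7 to 94.7 ± 10.4 normalized counts (± SD, n = 4 each), a log2 fold change of -0.52 (standard error 0.11, 95% interval -0.76 to -0.29, adjusted p = 0.0116 by limma). The call held without any 1 library (adjusted p = 0.000427 to 0.0433 by limma) and under each of the 17 alternatives. Fstl1 encodes a secreted glycoprotein related to follistatin and SPARC and is in none of the Hippo lists described below. It had 10677, 12877, 12778 and 12792 normalized counts alone and 14656, 14390, 14559 and 14522 with apoptotic cells. Alone library 1 was far below the other alone libraries, which agreed closely with one another, and every co-culture library was above them. Fstl1 rose from 12281 ± 1070 to 14532 ± 110 normalized counts (± SD, n = 4 each), a log2 fold change of 0.25 (standard error 0.06, 95% interval 0.12 to 0.37, adjusted p = 0.0183 by limma). Without alone library 1 the rise was 0.18 (standard error 0.02, adjusted p = 8.88e-07 by limma), and the call was lost without any 1 of the co-culture libraries (adjusted p = 0.0520 to 0.0610 by limma).

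**Figure D3:**
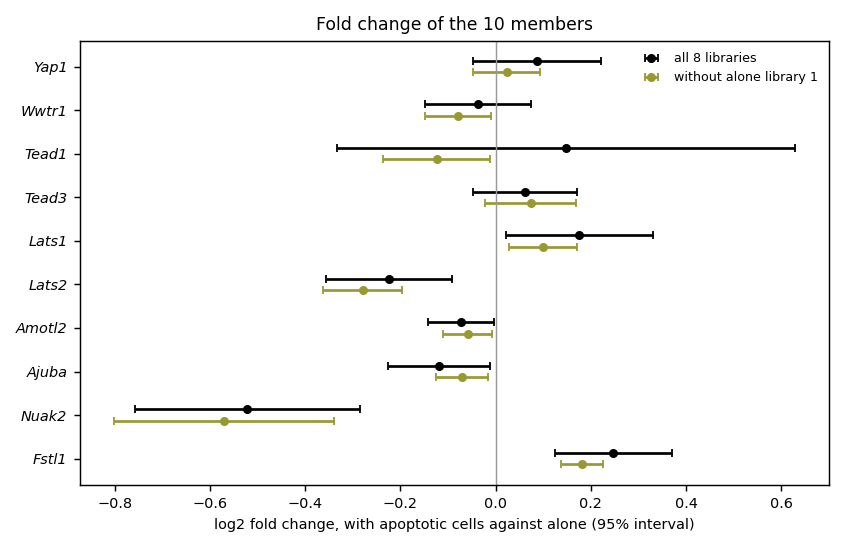
Log2 fold change of each of the 10 genes with its 95% interval from limma, with all 8 libraries (black) and without alone library 1 (olive). Nuak2 lies lowest at -0.52, Tead1 moves from 0.15 to -0.12 when alone library 1 is left out, and the intervals of most genes shorten without it.

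Genes with the most similar profile over the 8 libraries were looked up for the called genes with the largest rise and the largest fall, among 8939 candidates whose mean reached 100 normalized counts and whose symbol is not a LOC number. Likeness was the root mean square difference of log2 values centred on each gene's mean. Nearest to Fstl1 were Zeb1, a zinc finger transcription factor (0.0178), the tetraspanin gene Tspan5 (0.0190) and the TCA cycle gene Ogdh (0.0197). Zeb1 had 1975, 2398, 2383 and 2410 normalized counts alone and 2728, 2668, 2637 and 2642 with apoptotic cells. Its low alone library 1 and its rise follow from the choice by likeness over these libraries. Nearest to Nuak2 were Calhm3, a calcium homeostasis modulator gene (0.0899), the interferon-induced Oasl (0.105) and Pkp2, a desmosomal plakophilin (0.108). These distances are larger than those of Fstl1, but Nuak2 had 75 to 152 reads per library and Fstl1 11244 to 15445. What part this difference in reads has in the distances was not tested. Oasl went from a mean of 385 to 249 normalized counts and Pkp2 from 190 to 122, falls that the same choice fixes in advance.

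Among 22 tested genes of the wider kinase core, which holds the MST, LATS, MOB1 and MAP4K genes and their scaffolds, Map4k4 rose, Lats2 fell and 20 were not called, where 11.7% of all tested genes were called. The median log2 fold change of this list was 0.06, or 0.0015 without alone library 1. Map4k4, a kinase known to act on LATS in parallel to MST, went from 11683 ± 522 to 13001 ± 252 normalized counts (± SD, n = 4 each), a log2 fold change of 0.16 (standard error 0.04, adjusted p = 0.0220 by limma). This call was lost on leaving out, in turn, alone library 3 and co-culture libraries 1, 2 and 3 (adjusted p = 0.0680 to 0.0741 by limma), and with the replicate block (adjusted p = 0.0554 by limma). The MST kinase gene Stk3 had a log2 fold change of 0.10 (standard error 0.04, adjusted p = 0.115 by limma), its paralogue Stk4 0.04 (standard error 0.06, adjusted p = 0.689 by limma), or -0.02 without alone library 1, and the scaffold gene Sav1 0.09 (standard error 0.04, adjusted p = 0.210 by limma). Nf2, which encodes Merlin, the membrane-linked activator of LATS, stood at 3788 ± 114 and 3629 ± 37.0 normalized counts (± SD, n = 4 each). Its log2 fold change of -0.06 missed the limma threshold (adjusted p = 0.260) and passed it without alone library 1 (-0.08, adjusted p = 0.0184). Without that library 3 genes of this list were higher (Map4k4, Lats1 and Mob1b) and 5 lower (Lats2, Map4k3, Mink1, Tnik and Nf2), where 13.4% of all tested genes were higher and 12.5% lower. Without any other 1 library no kinase core gene was lower, where only 356 to 596 of all tested genes were lower.

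Of 7 tested genes of the co-activators and their nuclear partners, only Vgll4 was called, where 5.31% of all tested genes were lower. The median log2 fold change of the 7 was 0.06, or -0.08 without alone library 1. VGLL4, a cofactor that competes with YAP for TEAD factors, had 1946, 2063, 2016 and 2076 normalized counts of its transcript alone and 1800, 1826, 1812 and 1847 with apoptotic cells. All co-cultures were lower and close together, with a log2 fold change of -0.15 (standard error 0.03, adjusted p = 0.0188 by limma). The Vgll4 call was lost on leaving out, in turn, alone libraries 3 and 4 and co-culture libraries 1, 2 and 3 (adjusted p = 0.0556 to 0.0671 by limma), and with the replicate block (adjusted p = 0.0574 by limma). Vgll3, another TEAD cofactor, was at 6602 ± 699 and 7298 ± 217 normalized counts (± SD, n = 4 each; log2 fold change 0.15, standard error 0.07, adjusted p = 0.188 by limma), with a log2 fold change of 0.07 without alone library 1 (adjusted p = 0.0521 by limma). Vgll1 and Vgll2 had no reads. Without alone library 1, Tead4 joined Vgll4 as lower, where 12.5% of all tested genes were lower.

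Among 23 tested regulators at junctions and the cytoskeleton, Lin7c rose, Cdh1 fell and 21 were not called, where 11.7% of all tested genes were called. The list had a median log2 fold change of 0.03, or -0.03 without alone library 1. Lin7c, a PDZ scaffold of the Crumbs polarity complex, went from 2308 ± 134 to 2701 ± 82.2 normalized counts (± SD, n = 4 each), a log2 fold change of 0.23 (standard error 0.05, adjusted p = 0.0115 by limma), and was called under every left-out library. Cdh1, the epithelial cadherin gene, was low, at 242 ± 8.41 and 206 ± 12.0 normalized counts (log2 fold change -0.23, standard error 0.07, adjusted p = 0.0439 by limma). That call was lost without any 1 library other than alone library 1 (adjusted p = 0.0554 to 0.130 by limma), by DESeq2 (adjusted p = 0.0947), with no filter on low values (adjusted p = 0.0749 by limma) and with the replicate block (adjusted p = 0.101 by limma). Beside it, the other 9 epithelial and myeloid markers in the table summed to 130.1 to 153 normalized counts in the cells alone and 122 to 143 in the co-cultures, so that their groups overlapped, with Krt18 and Krt14 at 0, and the part of such cells in the Cdh1 value was not tested. The angiomotin gene Amotl1 was at 8823 ± 933 and 9023 ± 266 normalized counts (log2 fold change 0.04, standard error 0.07, adjusted p = 0.750 by limma), or -0.04 without alone library 1, and the phosphatase gene Ptpn14 had a log2 fold change of 0.22 (standard error 0.14, adjusted p = 0.323 by limma), or 0.06 without it. Leaving out alone library 1 gave 2 higher and 5 lower genes in this list, where 26.0% of all tested genes were called. Leaving out alone library 2 gave 2 higher, where 735 of all tested genes were higher.

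YAP/TAZ target genes were read from a published signature that includes Lats2, Amotl2 and Nuak2. Of 18 tested, Ccdc80 rose, Gadd45a, Nuak2, Rbms3 and Lats2 fell and 13 were not called, where 6.36% of all tested genes were higher and 5.31% lower. The median log2 fold change was -0.04. Leaving the 3 shared genes out, 15 were tested, of which 1 rose and 2 fell, with a median of -0.02, or 0.02 without alone library 1. Gadd45a, a growth arrest gene that p53 also induces and that the table lists as LOC103159266, had 865, 679, 757 and 671 normalized counts alone and 479, 472, 473 and 532 with apoptotic cells. The groups were far apart, and Gadd45a fell by 0.60 on the log2 scale (standard error 0.08, adjusted p = 0.00151 by limma) and was called under every left-out library. Rbms3, which encodes an RNA-binding protein, fell by 0.30 on the log2 scale (standard error 0.08, adjusted p = 0.0335 by limma), and Ccdc80, a secreted matrix protein gene, rose by 0.13 (standard error 0.03, adjusted p = 0.0321 by limma). The Rbms3 call was lost on leaving out, in turn, alone libraries 2, 3 and 4 and co-culture libraries 2, 3 and 4 (adjusted p = 0.0765 to 0.102 by limma), and that of Ccdc80 on leaving out alone library 3, alone library 4 or a co-culture library (adjusted p = 0.0537 to 0.0971 by limma). Both were lost with the replicate block (adjusted p = 0.0930 for Rbms3 and 0.0776 for Ccdc80 by limma).

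The targets most often used as readouts of YAP and TAZ activity were not called in the fit of all 8 libraries. Ctgf, which encodes the matricellular protein CCN2, had 647, 490, 529 and 467 normalized counts alone and 505, 515, 532 and 528 with apoptotic cells. The co-cultures lay inside the range of the cells alone, with a log2 fold change of -0.03 (standard error 0.09, 95% interval -0.22 to 0.17, adjusted p = 0.881 by limma), or 0.07 without alone library 1. Cyr61, which encodes the related CCN1, had 1963, 1589, 1767 and 1757 normalized counts alone and 1710, 1776, 1608 and 1717 with apoptotic cells, and again the groups overlapped (log2 fold change -0.05, 95% interval -0.19 to 0.08, adjusted p = 0.616 by limma, or -0.00069 without alone library 1). Ankrd1, a nuclear ankyrin repeat protein gene, was low, at 94.96, 65.86, 61.91 and 78.60 normalized counts alone and 52.34, 58.61, 57.15 and 49.90 with apoptotic cells. Its groups did not overlap, yet the log2 fold change of -0.44 (standard error 0.14) missed the limma threshold (adjusted p = 0.0691), and with array weights Ankrd1 was called lower (-0.34, adjusted p = 0.0462 by limma). Axl, the gene of a receptor tyrosine kinase that takes part in the uptake of dying cells, was the most abundant of the signature in reads, at 45688 ± 1108 and 47192 ± 533 normalized counts (± SD, n = 4 each; log2 fold change 0.05, standard error 0.03, adjusted p = 0.330 by limma).

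**Figure D4:**
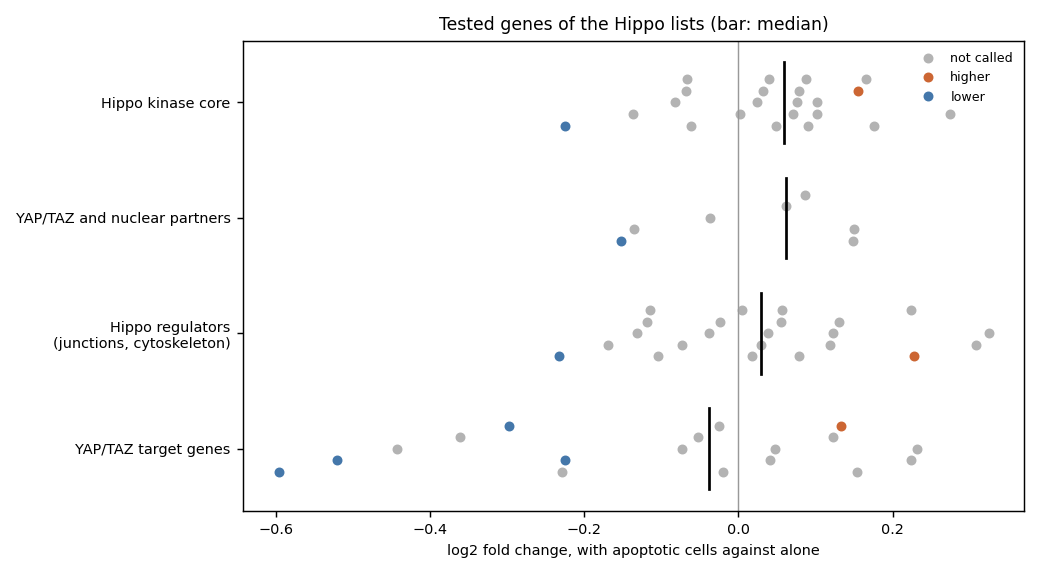
Log2 fold change of each tested gene in the 4 Hippo lists, coloured by whether limma called it higher or lower, with a bar at the list's median; the vertical scatter within a list has no meaning. Most genes were not called, 4 of 18 target genes are lower (2 of 15 without Lats2, Amotl2 and Nuak2, beside 5.31% of all tested genes), and the lowest point is Gadd45a at -0.60.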

How the data were processed

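The authors deposited 1 table with a signal column per library, in which read counts per gene have been scaled by a size factor. Dividing by the value of 1 read gave whole reads for 100% of values within 0.01 reads. The submitters' processing notes list FastQC, STAR, featureCounts and DESeq2 with no versions. Genome build, strand setting and the treatment of reads matching both species were not given in the sources used here. The authors' deposited log2 fold changes and p-values were used only where named, and their test score was not used. Replicate numbers and the letters AC in column names tied columns to labels. A row without a gene name (0.14 to 0.176% of reads) was left out.

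Log2(normalized count + 1) was fitted with limma-trend (limma 3.58.1, R 4.3.3) for the 13494 genes whose mean reached 10, with group as the only term and Benjamini-Hochberg adjustment over all of them. A fold change on this scale understates that of low genes. Alternatives were edgeR 4.0.16 and DESeq2 1.42.0 on whole reads, TMM scaling, pseudocounts of 0.5 and 5, no filter or a minimum mean of 100, array weights, a replicate block and each library left out. The limma step was also run on simulated counts with the same dispersion for every gene and no outlying library. That run cannot show how the step behaves with a library such as alone library 1.

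The members and lists were chosen with earlier results of these data known. Named genes were the 10 members, up to 6 called genes per list and a fixed set. Gadd45a was matched to a LOC number through the RefSeq table. Wwc1, Rassf1 and Patj were not analysed here, and some other listed genes and 2 further lists are not reported here. No 2 libraries of a group agreed within sampling noise (chi-square per degree of freedom 1.56 to 30.7). Bulk RNA does not tell fewer cells from less RNA per cell. No sequences or positions were used.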

Additional observations from a re-analysis of the deposited data

Results flagged for a closer look

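In groups of 4 libraries, the highest or lowest library was set against the others by its gap relative to the group's range, against Dixon's critical value for 4 values. Of 58 groups checked (2 for each of the tested named genes), 6 passed, where chance flags about 1 in 20, and 4 of the 6 were in alone library 1. Among the 10 Hippo genes, Fstl1 in alone library 1 stood at 10677 normalized counts against 12778 to 12877 in the rest of its group (ratio 0.955), and Lats1 in co-culture library 3 at 2382 against 2231 to 2251 (ratio 0.867). Alone library 1 was also low for Ccdc80, at 6659 against 7229 to 7262 normalized counts (ratio 0.946), Nf2, at 3618 against 3825 to 3856 (ratio 0.872), and Rbms3, at 374 against 444 to 454 (ratio 0.867). Gadd45a was high in co-culture library 4, at 532 against 472 to 479 normalized counts (ratio 0.886).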

How the results depend on the processing

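Nuak2, Gadd45a and Lin7c kept their direction and their call under all 17 alternatives. Over all genes 858 were higher and 716 lower, with 416 to 1811 higher and 356 to 1694 lower over left-out libraries, 1804 and 1674 with array weights, and 498 and 400 with the replicate block. The labels do not pair the numbers, and the deviations of same-numbered libraries correlated at -0.03, 0.18, 0.12 and -0.26. With the block, 3.69% of all tested genes were higher and 2.96% lower. There, 1 of the 10 Hippo genes was lower, as Lats2 lost its call (adjusted p = 0.0743 by limma), and 2 target genes were lower. In that fit 0 genes were called higher in the kinase core and target lists and 0 lower in the kinase core, nuclear partner and junction lists. With array weights, 1804 of the 13494 tested genes were higher and 1674 lower. Higher and lower genes then numbered 3 and 3 of 22 in the kinase core and 2 and 5 of 23 among junction regulators. Of 7 nuclear partners 2 were lower, and of the 10 Hippo genes 2 were higher and 3 lower. In the junction list 0 genes were lower by DESeq2 and with no filter, where 713 and 609 of all genes were lower. Over left-out libraries, counts of higher and lower genes ran from 0 to 2 and 1 to 2 for the 10 Hippo genes, 0 to 3 and 0 to 5 in the kinase core, 1 to 2 and 0 to 5 among junction regulators, and 0 to 1 and 2 to 5 among targets. Lower genes ran from 0 to 2 among nuclear partners.

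Medians ran from -0.065 to 0.041 for the 10 Hippo genes, 0.0015 to 0.0801 in the kinase core, -0.079 to 0.082 for nuclear partners and -0.071 to -0.030 for targets over left-out libraries, and those of the 10 Hippo genes and nuclear partners were -0.060 and -0.063 with array weights. Fold changes that turned were those of Tead1 (-0.12 to 0.30 over left-out libraries, -0.064 with array weights), Wwtr1 (-0.079 to 0.0020 over left-out libraries), Amotl1 (-0.039 to 0.081, and -0.023 with array weights), Ctgf (-0.084 to 0.071, and 0.047) and Stk4 (-0.018 to 0.072, and -0.0041), and none of these was called in any alternative. Ajuba and Ankrd1 were called with array weights (adjusted p = 0.0410 and 0.0462 by limma). Lats1, Nf2 and Tead4 were called with array weights (adjusted p = 0.0281, 0.0207 and 0.0408 by limma) and without alone library 1. The cause was not tested. Nuak2 rests on 75 to 152 reads per library, which limits its precision.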
